A study of Homo sapiens with 4 samples.

Results

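The integrins of matrix adhesion described here were 10 genes, 5 alpha subunits (*ITGA1*, *ITGA2*, *ITGA3*, *ITGA5* and *ITGAV*) and 5 beta subunits (*ITGB1*, *ITGB3*, *ITGB5*, *ITGB6* and *ITGB8*), found by symbol among the 33694 genes of the files. They were measured by single-cell RNA-seq in OVCA420, an established epithelial ovarian cancer cell line in which TGF-β1 induces an epithelial-mesenchymal transition (EMT). The 4 libraries were untreated cells (Ctrl) and cells given 10 ng/mL TGF-β1 for 1 day, 3 days or 7 days (1-day, 3-day, 7-day), all collected at the same time, with fresh TGF-β1 every 2 days and passaging where needed except in the final 2 days. There was 1 library per condition, so no difference could be tested and no p-value is given. All intervals are 95% intervals for counting error only, and differences between cultures cannot be told apart from differences between conditions.

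Integrins are receptors made of an alpha and a beta chain that link the extracellular matrix to the actin cytoskeleton. The β1 chain pairs with α1 and α2, which bind collagens, with α3, which binds laminins, with α5, the classical fibronectin receptor chain, and with αv. The αv chain also pairs with β3, β5, β6 and β8 and binds ligands that carry an RGD motif. The αvβ6 and αvβ8 dimers are best known for binding latent TGF-β and helping to release it, and αvβ6 is largely restricted to epithelia.

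The levels below are CPM, the unique molecular identifiers (UMIs) of a gene per 1000000 UMIs, summed over the 933 Ctrl, 937 1-day, 705 3-day and 569 7-day cells retained, with library sums between 25382817 and 32949874 UMIs. These were 3144 of the 3170 cells analysed here. Cells were read in barcode order from the start of each list and end partway through the 10710 listed barcodes, so the sums are part of each library. Cells held a median of 30270, 32393, 43553 and 43382 UMIs in the order Ctrl, 1-day, 3-day, 7-day. Pairs of libraries shared between 1 and 7 cell barcodes. Of 10 epithelial ovarian markers, 6 were above 5 CPM in each library, including *EPCAM* and the keratins *KRT7*, *KRT8*, *KRT18* and *KRT19*, with summed levels between 3851 and 5602 CPM. The other 4 were low: *WT1* had 0 UMIs in every library, *PAX8* was at 0.333 CPM or less, *MUC1* at 1.00 CPM or less and *MUC16* at 2.97 CPM or less. Summed levels of 5 immune, 4 endothelial and 5 stromal markers ranged from 2.97 to 7.96, from 0.311 to 5.40 and from 1.21 to 1.60 CPM. Most of the highest immune value was *CD79A* (7.88 CPM at 7-day) and most of the highest endothelial value was *CDH5* (5.37 CPM in Ctrl). The TGF-β1 target *PMEPA1* was at 66.8 CPM untreated and at 1501, 1385 and 962 CPM after 1, 3 and 7 days.

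The summed level of the 10 integrin genes was 642 CPM (95% interval 633 to 651) in Ctrl and 1767, 2252 and 2456 CPM after 1, 3 and 7 days (2437 to 2476 for the last). That is a 3.83-fold higher level at 7-day, and most of it was already there at 1-day. The 5 alpha genes together were 4.31-fold and the 5 beta genes 3.57-fold higher at 7-day. A gene was counted as higher or lower where its CPM ratio was at least 2-fold, a log2 ratio of 1, among the 9659 genes with a mean of at least 5 CPM over the 4 libraries. 8 of the 10 members passed that filter, all but *ITGB3* and *ITGA1*. At 1-day 6 of the 8 were at least 2-fold higher, where 9.25% of all tested genes were. At 3-day it was again 6 of 8, against 9.92% of all genes, and at 7-day 7 of 8, against 11.3%. None of the 8 was 2-fold lower at any time, against 8.52%, 5.25% and 4.91% of all genes. The median log2 ratio of the 8 members was 1.51, 2.09 and 2.27 at 1-day, 3-day and 7-day, and that of all tested genes -0.06, 0.04 and 0.10. The counts describe 8 genes and not the whole group, and *ITGA5* passed through its 3-day and 7-day levels, having stood at 1.33 CPM in Ctrl. The members were chosen with earlier results of these data known, so counts above the share of all genes do not measure enrichment. Those nearest the 2-fold line were *ITGA3* at 1-day (log2 1.01) on its upper side and *ITGB8* at 3-day (0.95) and *ITGB5* at 7-day (0.90) on its lower side.

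**Figure D1:**
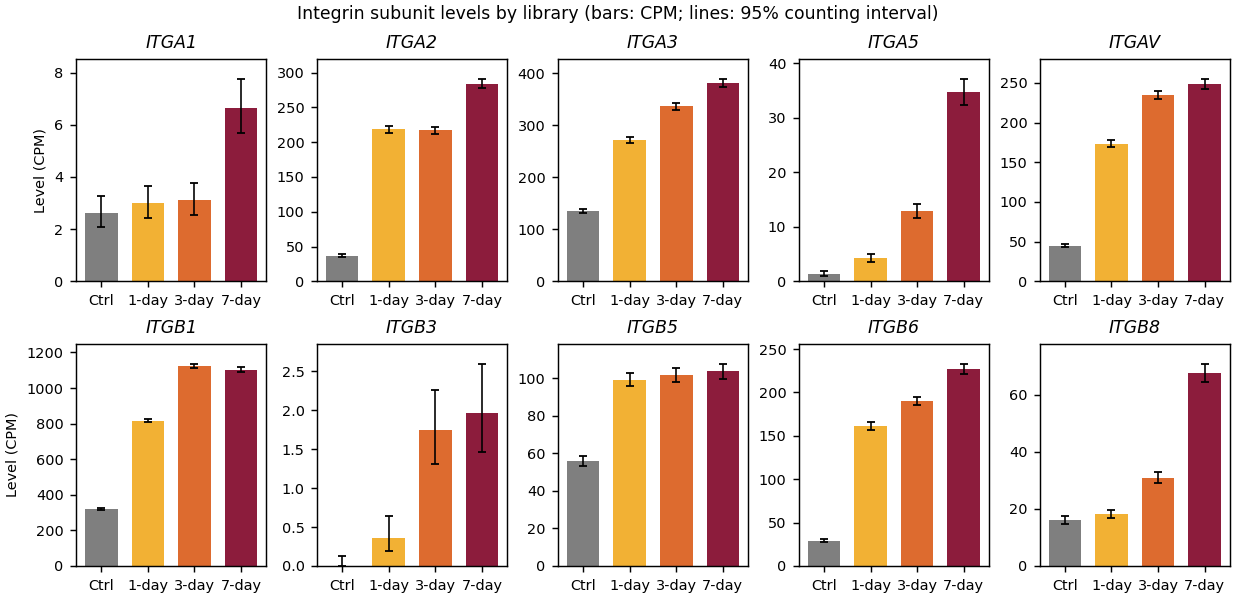
CPM of each of the 10 integrin genes (y axis, from 0, a separate scale for each gene) in the Ctrl, 1-day, 3-day and 7-day libraries (x axis). Bars are the level in 1 library and lines its 95% counting interval. *ITGA2* and *ITGB6* already stood at 219 and 161 CPM at 1-day. *ITGA5* and *ITGB8* were at 4.22 and 18.1 CPM at 1-day and at 34.7 and 67.6 CPM at 7-day. Every gene but *ITGB1* had its highest level at 7-day, not always beyond counting error.

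*ITGA2* and *ITGB6* were alike in course, each the other's nearest among 5475 genes with a mean of at least 20 CPM, by Euclidean distance between log2 CPM profiles centred on their mean over the 4 libraries (distance 0.18). Their upstream sequences are therefore shown first, from RefSeq on GRCh38.p14. Each is 250 bases before and 10 bases after an annotated start, at chr5:52989102-52989361 on the plus strand for *ITGA2* and chr2:160200263-160200522 on the minus strand for *ITGB6*, written 5′ to 3′ along the gene. Capitals would mark the searched motifs, and neither window has any.
ITGA2: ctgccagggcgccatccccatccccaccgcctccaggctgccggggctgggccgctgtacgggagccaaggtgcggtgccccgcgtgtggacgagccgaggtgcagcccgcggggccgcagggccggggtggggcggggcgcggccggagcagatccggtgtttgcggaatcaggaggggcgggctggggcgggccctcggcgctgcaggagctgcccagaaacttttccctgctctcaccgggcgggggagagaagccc
ITGB6: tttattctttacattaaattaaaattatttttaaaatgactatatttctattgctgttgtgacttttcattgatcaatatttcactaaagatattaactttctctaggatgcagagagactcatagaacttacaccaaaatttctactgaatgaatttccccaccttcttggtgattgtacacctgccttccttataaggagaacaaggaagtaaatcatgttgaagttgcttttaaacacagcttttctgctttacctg

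The motifs, searched on both strands, were CAGAC (a SMAD box), TGANTCA (an AP-1 site) and GGAATG (a TEAD site), letters that these factors can bind. They occurred in 40.2%, 6.92% and 12.5% of all 35116 windows of the same 260 bases. Windows were found for 8 of the 10 members, 12 in all, since *ITGAV* and *ITGB1* have a pair each and *ITGB5* has 3. CAGAC occurred in 6 of these 12 windows, TGANTCA in 1 and GGAATG in 2. The *ITGA2* window was 75.8% G and C and the *ITGB6* window 30.8%, against a median of 58.1% over all windows. These genes, each nearest to the other in course, thus had windows at opposite sides of that median, and neither held any of the motifs. A match is a description of letters and not a site of binding, and reads from 3′ ends do not show which start was used.

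*ITGA2* encodes the α2 chain of the collagen receptor α2β1 and lies at chr5:52989340-53094779 on the plus strand. Its level was 36.7 CPM without treatment, and 219, 217 and 284 CPM after 1, 3 and 7 days. Most of the difference was there after 1 day, 5.96-fold (log2 2.58, 2.48 to 2.67), the 3-day level did not differ from the 1-day level beyond counting error (log2 -0.01, -0.06 to 0.04), and 7-day stood 1.31-fold above 3-day. After every cell was thinned to 18000 UMIs, so that cells of all libraries had equal depth, 37.0% of Ctrl cells held an *ITGA2* UMI, against 93.1% at 1-day and 94.7% at 7-day. The unthinned shares were 51.4%, 98.4% and 98.9%. OVCA420 is a single cell type, so no cells that lack these genes were present to measure the share that free RNA gives.

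*ITGB6* encodes the β6 chain, which pairs with αv alone, and lies at chr2:160099667-160200313 on the minus strand. Its Ctrl level was 29.0 CPM, followed by 161, 190 and 227 CPM after 1, 3 and 7 days. Each library stood above the one before, and the log2 ratio to Ctrl was 2.48 (2.37 to 2.58), 2.71 (2.61 to 2.82) and 2.97 (2.87 to 3.07). Thinned cells with an *ITGB6* UMI made up 34.4% in Ctrl and between 82.9% and 86.0% in the treated libraries (49.4% and 93.2% to 96.0% unthinned). The share of cells with a UMI thus changed little after 1-day while the summed level went on from 161 to 227 CPM. Next nearest in course to *ITGB6* were *KIFC3*, a kinesin gene, and *CDC42EP3*, an effector of CDC42, at distances of 0.19 and 0.21. For *ITGA2* they were *LAMA3*, a laminin chain (0.25), and *KIFC3* (0.26).

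*ITGAV* encodes the αv chain that β6 and the other RGD-binding beta chains need, and lies at chr2:186590010-186680901 on the plus strand. Untreated cells held 45.1 CPM, and treated cells 174, 234 and 248 CPM after 1, 3 and 7 days. The log2 ratio was 1.94 (1.86 to 2.03) at 1-day and 2.46 (2.37 to 2.55) at 7-day, and the step from 3-day to 7-day was small (0.08, 0.03 to 0.13). *ITGAV* UMIs were found in 46.7% of thinned Ctrl cells, 90.8% at 1-day and 93.3% at 7-day, and in 63.1%, 96.7% and 99.1% unthinned. The genes nearest to it in course were *LARP6*, which encodes an RNA-binding protein, *SMURF2*, a ubiquitin ligase of the TGF-β pathway, and *OPTN*, an autophagy receptor (0.15 to 0.16).

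*ITGB1* encodes the shared β1 chain and is at chr10:32887273-33005792 on the minus strand. Ctrl cells held 320 CPM, and the treated libraries 817, 1124 and 1103 CPM after 1, 3 and 7 days. Its highest level was at 3-day, at 3.51-fold (log2 1.81, 1.78 to 1.84), with 7-day just below it (log2 -0.03, -0.05 to -0.005). That order was reversed in thinned cells without a UMI of the proliferation genes *TOP2A* and *MKI67*. There the log2 ratio to Ctrl was 2.01 at 3-day and 2.11 at 7-day. Nearly every thinned cell held an *ITGB1* UMI in each library (98.3% in Ctrl and 100% in the others), so the change was in the number a cell held, with medians of 5, 14, 20 and 19 UMIs in the order of the time course. *PHLDA3*, *HOMER3* and *LATS2*, a kinase of the Hippo pathway, had the nearest courses (0.05 to 0.12). The antisense gene ITGB1-DT, which overlaps an *ITGB1* exon, was counted apart, with 415 UMIs in Ctrl and 229 at 7-day.

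*ITGA3* encodes the laminin-binding α3 chain and is at chr17:50055968-50090481 on the plus strand. Over the time course it was at 135 CPM before treatment, then at 272, 336 and 380 CPM. Each library stood above the one before, but the ratios were the lowest of the 6 members called at all times, 2.01-fold at 1-day (log2 1.01, 0.95 to 1.06) and 2.81-fold at 7-day (1.49, 1.44 to 1.54). The interval at 1-day reached under 2-fold. *ITGA3* UMIs were found in 83.5% of thinned Ctrl cells and 97.3% at 1-day (92.0% and 99.3% unthinned). *HDAC7*, a histone deacetylase gene, was nearest in course (0.03), then *MED15*, a Mediator subunit, and *FGFRL1* (0.06 and 0.08).

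*ITGB5* encodes the β5 chain of the vitronectin receptor αvβ5 and is at chr3:124761948-124901418 on the minus strand. Against 55.6 CPM in Ctrl, it was at 99.1, 102 and 103 CPM after 1, 3 and 7 days. It was the only member passing the filter that stayed under 2-fold throughout. Neighbouring treated libraries did not differ beyond counting error, with log2 ratios of 0.04 (-0.04 to 0.11) from 1-day to 3-day and 0.03 (-0.05 to 0.10) from 3-day to 7-day. Against Ctrl the ratios of 0.83, 0.87 and 0.90 all had intervals above 0. Thinned cells with an *ITGB5* UMI were 61.7% of Ctrl and between 79.4% and 82.0% of the treated libraries (75.9% and 93.7% to 96.9% unthinned).

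*ITGA5* and *ITGB8* were the members passing the filter that were at least 2-fold higher at 7-day than at 3-day, where 1.17% of all tested genes were. *ITGA5* passed the filter through its 3-day and 7-day levels, so its place beside that share is no support for a late rise. *ITGA1*, under the filter, was 2.14-fold higher over the same step. By distance over the whole course *ITGA5* and *ITGB8* were 2.03 apart, and *ITGA5* was nearer to *ITGB6* (1.85) and *ITGA2* (1.95). The upstream windows of *ITGA5* and *ITGB8* are shown to set beside the first pair. The *ITGA5* window is chr12:54419257-54419516 on the minus strand and the *ITGB8* window chr7:20330650-20330909 on the plus strand, in the same build and layout. In the *ITGA5* window the capitals are CAGAC beginning 190 bases before the start, GGAATG beginning 82 bases before it, and TGAGTCA, which runs across the start from 6 bases before it. In the *ITGB8* window they are GTCTG, the reverse complement of CAGAC, beginning 91 bases before the RefSeq start. The *ITGB8* gene span given below is from another annotation and begins at base 20330702. Most of this window, the match included, thus lies within that span.
ITGA5: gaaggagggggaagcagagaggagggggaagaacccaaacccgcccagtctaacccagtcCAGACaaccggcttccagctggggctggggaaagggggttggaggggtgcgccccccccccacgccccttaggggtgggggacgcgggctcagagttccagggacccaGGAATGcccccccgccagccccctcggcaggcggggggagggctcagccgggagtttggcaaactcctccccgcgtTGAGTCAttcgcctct
ITGB8: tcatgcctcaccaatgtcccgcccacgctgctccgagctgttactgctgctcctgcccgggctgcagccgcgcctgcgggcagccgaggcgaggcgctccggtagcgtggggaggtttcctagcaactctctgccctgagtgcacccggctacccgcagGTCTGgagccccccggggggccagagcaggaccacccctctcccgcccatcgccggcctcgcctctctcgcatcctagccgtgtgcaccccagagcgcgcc

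Of the 8 members with a window, *ITGA5* alone had all 3 motifs. The 10 bases after the start were added to every window once the match across the *ITGA5* start had been seen, so that the share over all windows counts the same stretch. Without these bases the TGAGTCA match would be cut, so having all 3 depends on that choice. The share of all windows with all 3 motifs was not counted.

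*ITGA5* encodes the α5 chain of the fibronectin receptor α5β1 and lies at chr12:54395261-54419266 on the minus strand. The Ctrl level was 1.33 CPM (40 UMIs), and the levels after 1, 3 and 7 days were 4.22 CPM (139 UMIs), 12.8 CPM (412 UMIs) and 34.7 CPM (880 UMIs). Every step was over 2-fold: 3.16-fold from Ctrl to 1-day (log2 1.66, 1.14 to 2.21), 3.04-fold from 1-day to 3-day (1.60, 1.32 to 1.89) and 2.70-fold from 3-day to 7-day (1.44, 1.26 to 1.61). In cells without a UMI of the proliferation genes *TOP2A* and *MKI67* the 1-day log2 ratio was 0.76, under 2-fold. Ctrl had 82 such cells, with *ITGA5* at 2.71 CPM (0.74 to 6.94), so that ratio is imprecise. Over all cells *ITGA5* was 26.0-fold above Ctrl at 7-day (log2 4.70, 4.24 to 5.20), the highest ratio of the members with UMIs in Ctrl. It was the only member passing the filter that was 2-fold higher from 1-day to 3-day, where 4.78% of all tested genes were. It passed that filter through its 3-day and 7-day levels, so the share is no support for its rise. The share of thinned cells with an *ITGA5* UMI went from 1.90% to 6.78%, 17.3% and 36.8% (3.75%, 12.2%, 30.2% and 54.0% unthinned). Nearest in course was *LGALS1*, which encodes galectin-1, a β-galactoside-binding lectin, at 7.03, 20.7, 62.6 and 161 CPM in the same order of libraries (distance 0.13). *ANTXR2*, a matrix receptor, and *SLC16A3*, a lactate transporter, came next, at distances of 0.41 and 0.63.

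*ITGB8* encodes the β8 chain, another αv partner, and is at chr7:20330702-20415754 on the plus strand. Levels were 16.0 CPM untreated, then 18.1, 31.0 and 67.6 CPM after 1, 3 and 7 days. The 1-day level did not differ from Ctrl beyond counting error (log2 0.17, -0.002 to 0.35), 3-day was 1.93-fold above Ctrl and 7-day 4.21-fold (2.08, 1.93 to 2.22). The step from 3-day to 7-day was 2.18-fold (1.12, 1.01 to 1.24). Thinned cells with an *ITGB8* UMI were 21.7%, 24.1%, 34.6% and 56.3% of the libraries in order (33.4%, 38.0%, 57.9% and 77.9% unthinned). The nearest courses were those of *MAST4*, a kinase gene (0.11), of a gene that the files name RP11-54H7.4 (0.13), and of *TNIP1*, an inhibitor of NF-κB signaling (0.34). An antisense gene, ITGB8-AS1, overlaps an *ITGB8* exon and was counted apart, with 511 UMIs in Ctrl and 447 at 7-day.

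The 2 members under the filter were rare in every library. *ITGA1*, the α1 chain of a collagen receptor, at chr5:52787916-52959209 on the plus strand, was at 2.63, 3.00 and 3.11 CPM in Ctrl, 1-day and 3-day, where neighbours in that order do not differ beyond counting error, and at 6.66 CPM at 7-day (log2 1.34, 0.94 to 1.74). Its exons overlap those of *PELO* on the same strand, which had between 595 and 883 UMIs in a library, so reads in the shared stretch are uncertain. *ITGB3*, the β3 chain of αvβ3, at chr17:47253827-47313743 on the plus strand, had 0 UMIs in the 29995994 of Ctrl, and 12, 56 and 50 UMIs at 1-day, 3-day and 7-day. A count of 0 allows up to 3 UMIs in that library, and the treated levels were 3.64-fold, 17.4-fold and 19.7-fold above that floor. With the counting error of both libraries taken in, the exact lower limits of the log2 ratio to Ctrl were 1.34, 3.78 and 3.95. At 3-day and 7-day it was at 1.74 and 1.97 CPM, which do not differ beyond counting error, and at most 3.64% of thinned cells held a UMI of it. In Ctrl 0 of 844 thinned cells did, with an exact binomial upper limit of 0.436%. Another protein-coding gene on the same strand shares a stretch of 430 exon bases with *ITGB3* and had 0 UMIs in every library. Reads in that stretch are uncertain for *ITGB3* too.

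**Figure D2:**
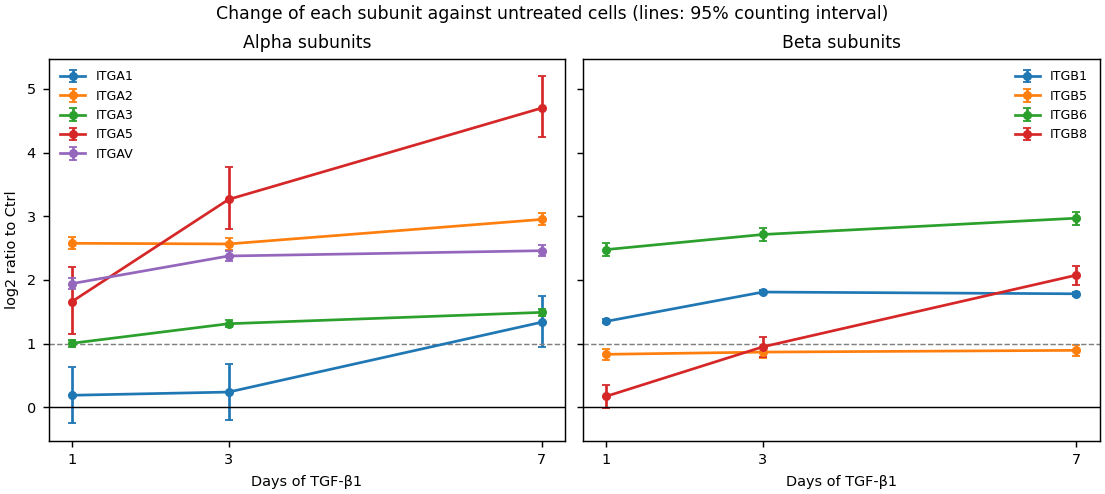
The log2 ratio of CPM to Ctrl (y axis) of each subunit against days of TGF-β1 (x axis), alpha subunits left and beta subunits right, with 95% counting intervals and a dashed line at 2-fold. *ITGA2* and *ITGB6* were already above 2.4 at 1 day, and *ITGB5* stayed under the line. *ITGA5* and *ITGB8* were at 1.66 and 0.17 at 1 day and at 4.70 and 2.08 at 7 days. *ITGB3* has no Ctrl UMI and is left out.

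The unequal changes moved the make-up of both subunit families. 3′ UMI counts are not scaled by transcript length and capture may differ between genes, so the shares that follow are read for how they change between libraries. Among the alpha subunits, *ITGA3* held 61.2% of UMIs in Ctrl (60.0% to 62.4%) and 40.5%, 41.8% and 39.9% at 1-day, 3-day and 7-day. The level of *ITGA3* was itself 2.81-fold higher at 7-day, so its smaller share was no fall in level. The largest part of the share went to *ITGA2*, and smaller parts to *ITGAV* and, later, *ITGA5*. *ITGA2* went from 16.6% to 32.6%, 27.0% and 29.7%. *ITGAV* went from 20.4% to 25.9%, 29.2% and 26.0%. *ITGA5* was flat at 0.603% and 0.629% in Ctrl and 1-day and reached 1.60% and 3.64% later, still a small part. In all, 21.8 percentage points of the alpha UMIs changed hands between Ctrl and 7-day, and the *ITGA3* share was already 40.5% at 1-day.

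Among the beta subunits *ITGB1* held between 73.4% and 77.6% in every library, with 76.1% in Ctrl. The αv partners changed places within the remainder. Without *ITGB1*, *ITGB5* was the largest of the αv partners in Ctrl with 55.3% of UMIs (53.5% to 57.1%), and was at 35.5%, 31.3% and 25.9% at 1-day, 3-day and 7-day. *ITGB6* held 28.8% in Ctrl (27.2% to 30.4%) and 57.8%, 58.6% and 56.7% in the treated libraries. The ratio of *ITGB6* to *ITGB5* UMIs was thus 0.521 (0.479 to 0.566) in Ctrl and 1.63, 1.87 and 2.19 after 1, 3 and 7 days (2.09 to 2.30 for the last). *ITGB8* had a smaller share at 1-day than in Ctrl, 6.49% against 15.9%, and then 9.55% at 3-day and 16.9% at 7-day. The change from *ITGB5* to *ITGB6* came without a fall of *ITGB5*, whose own level was 1.86-fold higher at 7-day. Over all 5 beta subunits 9.04 points changed hands between Ctrl and 7-day, and 14.0 points in cells without a UMI of *TOP2A* and *MKI67*.

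**Figure D3:**
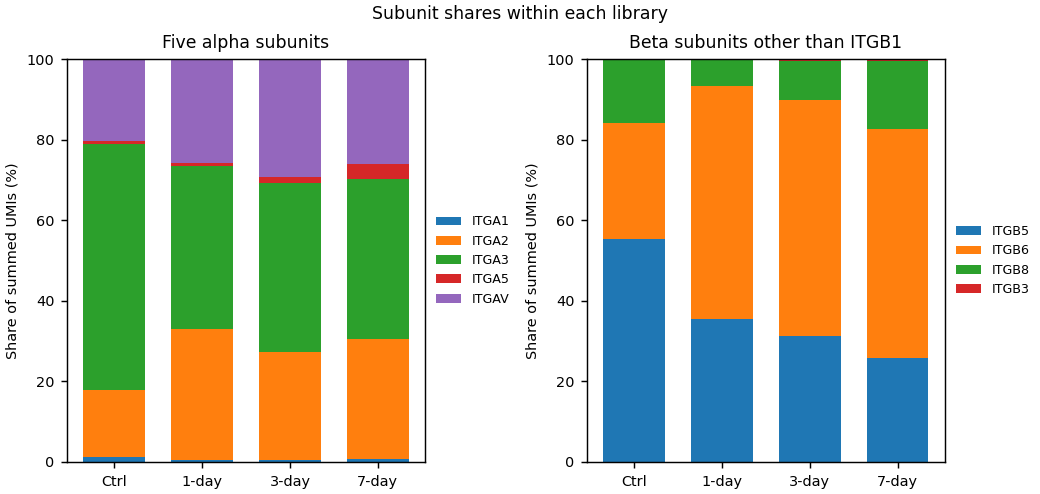
Share of summed UMIs (y axis, percent) in each library (x axis) of the alpha subunits (left) and of the beta subunits other than *ITGB1* (right). *ITGA3* went from 61.2% to 40.5% of the alpha UMIs by 1-day, and *ITGB6* from 28.8% to 57.8% of the beta UMIs shown.

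The chains of a dimer must meet in the same cell, so the share of thinned cells with UMIs of both partners was counted. *ITGAV* with *ITGB6* was found in 18.5% of Ctrl cells (15.9% to 21.3%) and in 75.7%, 82.1% and 80.1% of cells treated for 1, 3 and 7 days. *ITGAV* with *ITGB5* went the same way, at 29.1% in Ctrl and 72.6%, 77.4% and 76.0% after 1, 3 and 7 days. *ITGAV* with *ITGB8* was found in 11.4%, 22.4%, 33.7% and 53.4% from Ctrl to 7-day. For the fibronectin receptor pair, *ITGB1* with *ITGA5*, the shares were 1.78%, 6.78%, 17.3% and 36.8%, equal to those of *ITGA5* itself in the treated libraries, where every thinned cell had *ITGB1*. Such shares go up wherever either gene is found in more cells, and the shares expected from each gene alone were not computed. A cell without a UMI may still hold the transcript.

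Cells of a library held unequal counts. At 7-day the median cell held 2 *ITGB6* UMIs while the 90th percentile of cells was 10, and the highest held 39. The 10% of cells with the most *ITGB6* held 50.0% of its UMIs in Ctrl and 32.5%, 30.9% and 37.2% after 1, 3 and 7 days. For *ITGAV* they held 41.1% in Ctrl and 27.4% at 7-day, and for *ITGB8* 58.1% and 43.2%. These shares are larger where counts are few, so they do not compare the spread of rare and abundant genes.

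Within libraries some pairs of subunits were correlated across cells, by Pearson's r over cells thinned to equal depth. Most pairs were weakly correlated, with a median r of 0.12, 0.05 and 0.13 in Ctrl, 1-day and 3-day. Cells share a library and are not independent cultures. *ITGAV* and *ITGB6* had an r of 0.217 over the 844 Ctrl cells. After treatment the same r was 0.365 (900 cells, 1-day), 0.456 (677 cells, 3-day) and 0.658 (549 cells, 7-day). It was the highest r among the 45 pairs of members at 3-day and at 7-day. In Ctrl and at 1-day the highest was instead *ITGA2* with *ITGA3*, at 0.321 and 0.395. Next at 7-day were *ITGAV* with *ITGB1* (0.515) and *ITGB1* with *ITGB6* (0.512), and the median over the 45 pairs was 0.172. The r of *ITGA5* with *ITGB8* was 0.096 at 3-day and 0.352 at 7-day. It was not particular to this pair, since *ITGA5* at 7-day had an r of 0.341 with *ITGAV* and 0.298 with *ITGB6*. With its partner *ITGB1* the r of *ITGA5* at 7-day was 0.149. Counting noise lowers r more where counts are few, and the mean counts per thinned cell also went up, for *ITGAV* from 0.762 in Ctrl to 4.23 at 3-day and for *ITGB6* from 0.505 in Ctrl to 3.94 at 7-day. The part of these levels in the change of r was not tested.

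**Figure D4:**
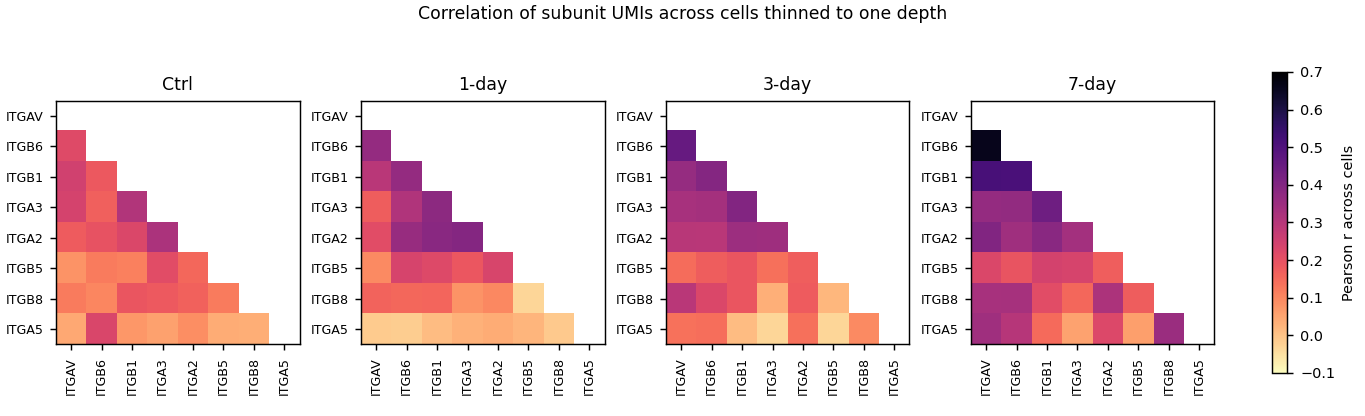
Pearson's r (color) across thinned cells between each pair of 8 subunits, 1 panel per library. The square of *ITGAV* with *ITGB6* darkens from Ctrl to 7-day, where r was 0.658.

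The share of cells with proliferation transcripts differed between libraries, and within libraries several integrin levels differed with these transcripts. A UMI of *TOP2A* or *MKI67* was found in 90.3% of thinned Ctrl cells and in 40.8%, 65.1% and 77.6% of cells treated for 1, 3 and 7 days. Within a library, cells without such a UMI held more of several subunits than cells with it, and the 2 classes had like depth (median 43123 and 44478 UMIs at 7-day). At 7-day *ITGB8* was at 137 CPM in the cells without and 50.9 CPM in the cells with it, a 2.70-fold difference (log2 1.43, 1.21 to 1.65). *ITGB6* was at 375 and 173 CPM (1.11, 0.99 to 1.24). *ITGA5* was at 59.6 and 28.8 CPM (1.05, 0.73 to 1.37). The difference was smaller for *ITGAV* (0.73), *ITGA2* (0.57), *ITGB1* (0.25) and *ITGA3* (0.20), and for *ITGB5* its interval held 0 (0.07, -0.14 to 0.28). Of the 8 members passing the filter, the interval lay above 0 for 7 at 7-day, where it did for 12.3% of all genes passing it. It did for 7 of 8 at 3-day (13.5% of genes), 5 of 8 at 1-day (12.3%) and 3 of 8 in Ctrl (6.56%). An interval excludes 0 more readily in an abundant gene and in larger classes of cells. The class without such a UMI held 82 cells in Ctrl and 533, 236 and 123 after 1, 3 and 7 days. These counts thus do not compare libraries. The 7-day cells with proliferation transcripts were still above the Ctrl cells with them, for *ITGB6* at 173 against 26.7 CPM and for *ITGB8* at 50.9 against 15.7 CPM. In cells without proliferation transcripts alone, of which Ctrl had 82, the log2 ratio of 7-day to Ctrl was 2.70 for *ITGA2*, 3.21 for *ITGB6*, 4.46 for *ITGA5*, 3.42 for *ITGB8* and 0.84 for *ITGB5*. Levels in those Ctrl cells were imprecise for *ITGA5*, at 2.71 CPM (0.74 to 6.94), and for *ITGB8*, at 12.9 CPM (7.75 to 20.1). All levels and ratios of these cells were taken after thinning. Depth per cell also moved with treatment. Over all cells, with or without proliferation transcripts, the ratios in the same order of genes were 3.02, 2.96, 4.91, 2.19 and 0.92 after thinning. Unthinned they were 2.95, 2.97, 4.70, 2.08 and 0.90. The median mitochondrial share of UMIs was 8.31% in Ctrl and between 6.22% and 7.42% in the treated libraries, and with cells limited to at most 10% no member's log2 ratio moved by more than 0.11. The r of *ITGAV* with *ITGB6* at 7-day was 0.619 in the cells with and 0.637 in the cells without proliferation transcripts.

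**Figure D5:**
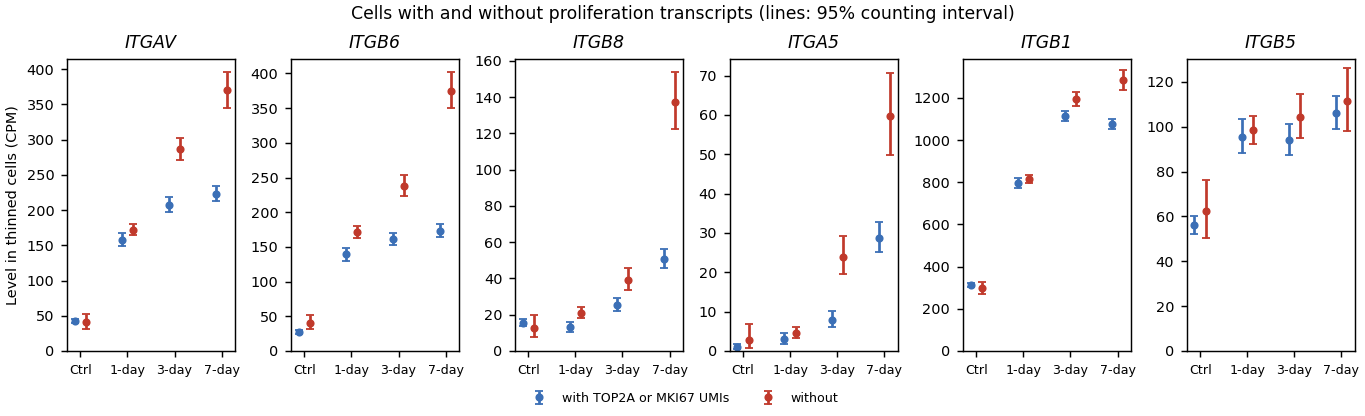
CPM in thinned cells (y axis, from 0) of 6 subunits in each library (x axis), in cells with a *TOP2A* or *MKI67* UMI and in cells without one, with 95% counting intervals. At 7-day the *ITGB6*, *ITGB8*, *ITGA5* and *ITGAV* points of the 2 classes stand apart, while those of *ITGB5* overlap.

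The other genes of the integrin system were taken by list, and their counts are again of genes at least 2-fold from Ctrl. Of all tested genes 9.25%, 9.92% and 11.3% were higher at 1-day, 3-day and 7-day, and 8.52%, 5.25% and 4.91% lower. The lists too were chosen with earlier results known. Some listed genes passed the filter only through treated libraries, among them *TNC*, *COL1A1*, *LTBP2* and *LPXN*, at 2.17, 4.10, 0.533 and 1.67 CPM in Ctrl. Of 16 other integrin subunits 3 passed the filter, and 1 was higher at each time: *ITGB4*, the β4 chain of the laminin receptor of hemidesmosomes. *ITGB4* peaked early, with 128 CPM untreated and 544, 326 and 265 CPM after 1, 3 and 7 days. Its partner *ITGA6* stayed under 2-fold, at 46.4 CPM in Ctrl and between 69.6 and 72.5 CPM after. The third, *ITGAE*, the αE chain that pairs with β7, had 120 CPM untreated, then 86.4, 115 and 114 CPM after 1, 3 and 7 days.

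The ligand list held 31 symbols for 29 genes, since *CYR61* and *CTGF* were also listed under their newer symbols *CCN1* and *CCN2*. All 29 genes were found and 18 passed the filter. 12 of the 18 were higher and 1 lower at 1-day, 13 and 1 at 3-day, and 13 and 2 at 7-day, with a median log2 ratio of 2.43, 2.61 and 2.35. *LAMA3*, a laminin α chain, was at 7.80, 52.0, 54.4 and 76.6 CPM from Ctrl to 7-day, a course near that of *ITGA2*. *TNC*, tenascin-C, went from 2.17 to 11.2, 54.4 and 72.9 CPM (5.07), a course that reached its highest value late. *CTGF* and *TGFBI*, both matricellular proteins, were highest at 3-day and 1-day and still at 4.51 and 4.38 on the log2 scale at 7-day. *FN1*, the fibronectin that α5β1 binds, was at 48.1, 81.1, 256 and 232 CPM, under 2-fold at 1-day and 4.83-fold above Ctrl at 7-day. *SPP1*, osteopontin, an RGD ligand of αv integrins, was lower, from 4001 CPM in Ctrl to 1350, 1165 and 1413 CPM, and so was *LAMA5*, the laminin α5 chain, from 37.1 to 13.6 CPM at 7-day. The listed fibrillar collagen genes were mostly at or near 0, *COL1A2* and *COL3A1* among them, apart from *COL1A1*, at 4.10, 141, 63.1 and 14.8 CPM. The collagen IV genes were higher in every treated library. *COL4A1* was at 7.73, 126, 118 and 68.4 CPM from Ctrl to 7-day, and *COL4A2* at 24.7, 139, 186 and 133 CPM.

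Of 9 genes listed for TGF-β and its latent complexes, not all of them ligands of αvβ6 or αvβ8, 4 passed the filter and 3 were higher at 7-day. *TGFB1* had 87.4 CPM untreated and 252, 206 and 197 CPM after 1, 3 and 7 days. *LTBP2* went from 0.533 to 16.8 CPM and *LTBP4* from 10.4 to 22.3 CPM. Both belong to a family named for latent TGF-β binding, and binding was not measured here.

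Of 40 adaptors and kinases that act on the cytoplasmic side of integrins, 33 passed the filter. 14 were higher and 0 lower at 1-day, 15 and 2 at 3-day, and 12 and 2 at 7-day, and their median log2 ratio was 0.73, 0.94 and 0.66. *LPXN*, leupaxin, had the highest ratio of these 33 at 7-day, at 1.67, 4.98, 11.3 and 23.8 CPM (log2 3.84), a stepwise course. *ACTN1*, the crosslinker α-actinin-1, was at 54.4 and 304 CPM in Ctrl and at 7-day (2.48). *FERMT1*, kindlin-1, which activates β1 integrins, was at 191 and 697 CPM (1.87), and *PXN*, paxillin, at 43.8 and 139 CPM (1.66). Among other integrin activators of the list, *TLN1*, talin-1, was between 47.9 and 54.3 CPM in all libraries, and *FERMT2*, kindlin-2, went from 7.60 to 17.8 CPM by 7-day (1.23). *TNS1*, tensin-1, was lower at 7-day, at 12.8 and 2.40 CPM (-2.42), and so was *FBLIM1*, migfilin, at 10.7 and 5.12 CPM (-1.07).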

How the data were processed

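Single-cell libraries were made with the 10x Genomics 3′ v3 kit. The authors deposited UMI counts per gene and cell, without normalization, made with Cell Ranger 2.0.1 on GRCh38 with default parameters. Cells with more than 200 genes and at most 20% mitochondrial UMIs were retained. Scrublet (scanpy 1.11.5) marked 33 cells (1.05%), which were kept outside the alternative that drops them. Counts were summed per library and divided by its total (CPM), with exact Poisson intervals. Log2 ratios have exact conditional binomial intervals and shares exact binomial ones. Thinned cells held 18000 UMIs, which left out 174 shallower cells. The members and gene lists were chosen with earlier results of these data known. Text names all members and the 3 nearest genes in course of each member with a log2 range of at least 1 and a mean of at least 5 CPM. Per list it names up to 4 genes highest and lowest at 7-day past 2-fold. A few that met this rule are left out here. *ITGA6*, *ITGAE*, *FN1*, *LAMA3*, *COL1A1*, *COL1A2*, *COL3A1*, *COL4A1*, *COL4A2*, *TLN1*, *FERMT2*, *CD79A*, *CDH5* and the genes of the other observations were named after their values were seen. Positions are from GENCODE release 44. On simulated counts of 9488 genes for 7-day against Ctrl, the interval held the true ratio for 95.5% of 200 changed and 95.2% of unchanged genes. These counts were drawn as Poisson, as the interval assumes. The simulation thus checks the calculation and not whether the intervals cover the spread between cells or cultures. Alternatives were other mitochondrial limits, filters, scaling and thinning, doublets or proliferating cells left out, and either part of the cells. Other data of the study were not analysed here. Analyses ran in Python 3.11.15.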

Additional observations from a re-analysis of the deposited data

How the results depend on the processing

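The counts of members at least 2-fold from Ctrl stayed within 1.5 times under all 33 alternatives run, from 9 against 7 at 7-day, when genes with a mean of 1 CPM were admitted, to 4 against 6 at 1-day, in cells without *TOP2A* or *MKI67*. The 20 log2 ratios past 2-fold kept their direction in all 180 alternatives run, and 3 fell under 2-fold: *ITGA3* at 1-day in the first part of the cells in barcode order (0.93) and in cells without *TOP2A* or *MKI67* (0.86), and *ITGA5* at 1-day in those cells (0.76). The last rests on an imprecise *ITGA5* level in such Ctrl cells, 2.71 CPM (0.74 to 6.94). The largest shift was that of *ITGB8* at 7-day, to 3.42 in cells without *TOP2A* or *MKI67*, of which Ctrl had 82. The *ITGB8* level in those Ctrl cells was imprecise too, 12.9 CPM (7.75 to 20.1). The beta shares moved between Ctrl and 7-day, 9.04 points, were 7.31 in the first and 10.6 in the second part of the cells, 14.0 in cells without *TOP2A* or *MKI67*, and 7.17 as a mean of per-cell shares. The alpha shares moved, 21.8 points, were 26.3 in cells without *TOP2A* or *MKI67*. The cause was not tested. Under 2-fold, *ITGB8* at 1-day turned to -0.10 in the second part and *ITGA1* at 1-day to -0.05 in the first. Median-of-ratios scaling moved the median of all genes by 0.08, 0.02 and -0.06. The r of 3 pairs at 7-day was tried in cells with and without *TOP2A* or *MKI67* and without marked doublets, after the data had been seen. It stayed within the sampling interval over cells. These are parts of the same 549 cells of 1 library, and the pairs were the highest of 45 there. Staying within the interval is thus no independent check. No paired analysis was possible because every time point had just 1 library.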

Other observations

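Some genes of the integrin lists were too rare for the filter but differed between libraries, and they were chosen after their values were seen. *ITGA11*, the α11 chain of a collagen receptor, had 3, 33, 42 and 3 UMIs from Ctrl to 7-day. Its log2 ratio to Ctrl was 3.32 (1.65 to 5.67) at 1-day, 3.71 (2.06 to 6.04) at 3-day and 0.24 (-2.66 to 3.14) at 7-day, so the highest counts lay in the middle of the time course, unlike those of the collagen receptor chains *ITGA1* and *ITGA2*. *TGFB1I1*, the paxillin relative Hic-5, had 7, 27, 83 and 86 UMIs in the order of the time course, with a log2 ratio of 3.86 (2.76 to 5.22) at 7-day. *PARVB*, β-parvin, had 5, 10, 66 and 58 UMIs (3.78, 2.47 to 5.45). *VTN*, vitronectin, the ligand of αvβ5 and αvβ3, went the other way, with 110, 167, 12 and 2 UMIs (-5.54, -8.60 to -3.65).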
